A study of Mus musculus with 6 samples.

Results

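The genes described here are those of the bone morphogenetic protein (BMP) and transforming growth factor beta (TGF-beta) pathways in mouse intestinal epithelial cells. They were chosen by name from the deposited table: ligands (Bmp, Gdf and Tgfb genes, the activin chains named Inhb), receptors (Bmpr, Acvr, Tgfbr), Smad genes, extracellular antagonists such as Grem1, Nog and Chrd, the decoy receptor Bambi and the target genes Id1 to Id4. The rule took 54 of 18159 genes, and 38 of them had enough reads to be tested, among 13558 tested genes in all. Poly(A)-selected RNA was sequenced from 3 libraries of wild-type mice and 3 labelled Git2-knockout (called knockout-labelled below), all of mice aged 12 days. The titles name isolated epithelial cells, the series' design text speaks of enteroids (epithelial organoids grown from crypts), and the genotype field says Git2 knockdown where the titles say knockout. Neither the altered part of Git2 nor the strain, nor whether libraries of a group came from separate animals or cultures, is given in the sources used here, so p-values reflect no more than how these libraries scatter, which may be technical.

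BMP and TGF-beta ligands are secreted dimers that bring type II and type I serine/threonine kinase receptors together at the cell surface. The type I receptor then phosphorylates receptor Smads, which join Smad4 and enter the nucleus. BMP receptors act mainly through Smad1, Smad5 and Smad9, and TGF-beta and activin receptors mainly through Smad2 and Smad3. In the intestine, BMP ligands of the mesenchyme and the villus epithelium restrain crypt stem cell renewal and promote maturation, while antagonists secreted around the crypt base keep the signal low there.

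Libraries held 16284414 to 19106581 estimated reads. Levels are given as CPM, reads scaled to a common library size after TMM normalisation, and levels of different genes are compared only in TPM, which also accounts for transcript length. A gene is called higher or lower when edgeR's quasi-likelihood test gave a Benjamini-Hochberg adjusted p under 0.05 over all tested genes. Git2 itself was at 22.2 to 23.7 CPM in wild-type libraries and 15.5 to 17.4 CPM in knockout-labelled ones (log2 fold change -0.47, edgeR adjusted p = 4.44e-05), so its transcript was not absent, and directions below are those of the knockout-labelled libraries. Markers of other cells moved too, in both directions, while 29.6% of all tested genes were called higher and 27.4% lower. Of 16 tested fibroblast and smooth muscle markers 14 were called higher and 0 lower, with a median log2 fold change of 1.42 and a summed level of 61.2 to 65.7 CPM in wild-type against 178 to 189 CPM. Of 16 endothelial markers 15 were called higher and 0 lower, with a median of 1.15, and their sum went from 39.8 to 40.5 CPM in wild-type to 81.7 to 93.4 CPM. Of 12 epithelial markers 10 were called lower and 0 higher, with a median of -0.28, but their sum was still 10840 to 11203 CPM (12431 to 13040 CPM in wild-type), so the labelled cell type was borne out by its markers in every library. That median was -0.10 with length and GC trends removed, where the fibroblast median was 1.504, and -0.12 on log2(TPM + 1). Of 7 tested B and plasma cell markers all 7 were called lower (median -0.94, summed 19.6 to 20.1 CPM in wild-type against 8.30 to 9.59 CPM), and of 5 tested erythroid markers 4 were called higher and 0 lower (median 1.52). Of 12 macrophage markers 3 were called higher and 1, Csf1r (-1.12), lower. In bulk RNA, fewer cells of a type and less RNA per cell cannot be told apart.

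Of the 38 tested members 19 were called higher and 3 lower in the knockout-labelled libraries. That is 57.9% of them, beside a background of 57% of all tested genes called, so the share called was that of genes at large. By direction, the background was 29.6% of all tested genes called higher and 27.4% called lower. The members' median log2 fold change was 0.15, against 0.02 for all tested genes. Groups did not overlap in CPM for 24 of the 38 members, beside 62.9% of all tested genes. A called change of at least 2-fold was seen in 3 members, Bmp5, Bmp4 and Tgfbr3, beside 4.65% of all tested genes, and 13 of the 22 called members changed by less than 0.5 on the log2 scale. The other 16 members had at most 15.0 estimated reads in any library and were not tested.

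**Figure D1:**
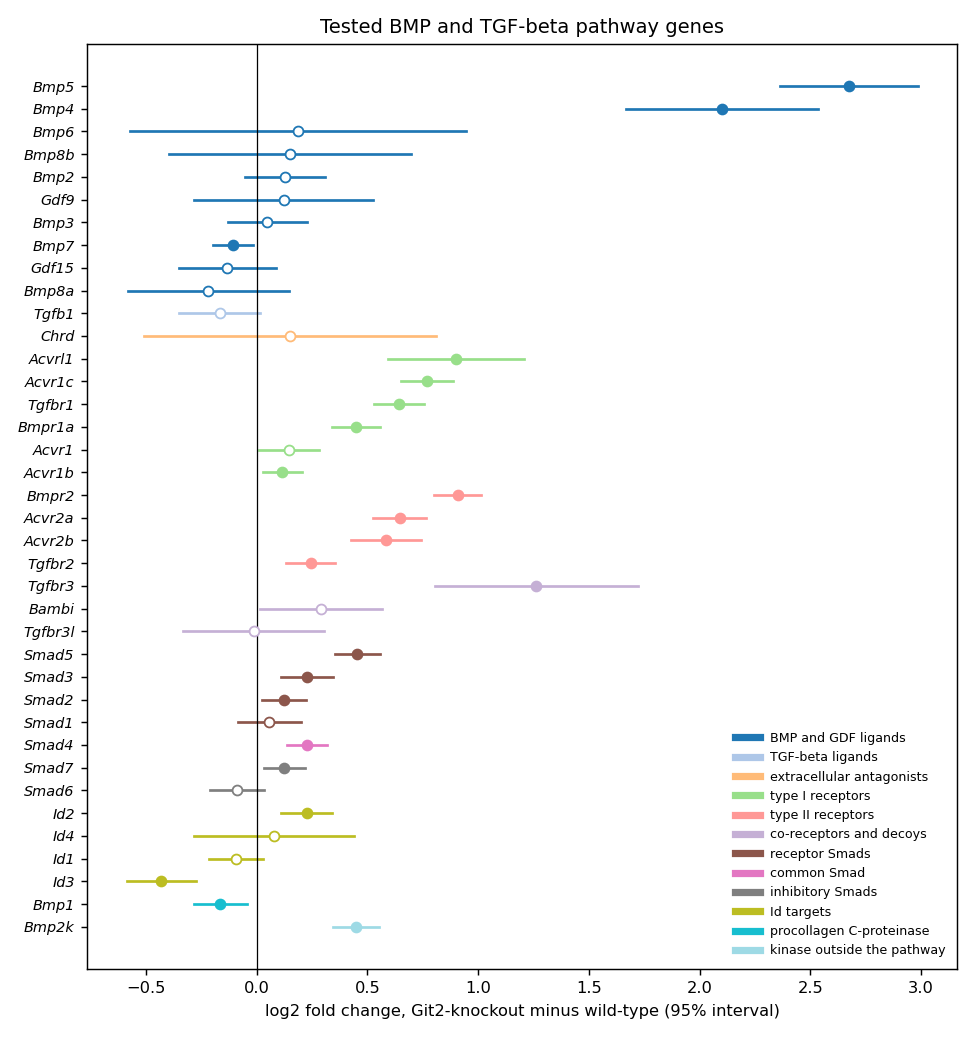
Log2 fold change (Git2-knockout minus wild-type, x axis) of the 38 tested genes, grouped and coloured by role, with 95% intervals of the edgeR fit; filled points passed an adjusted p of 0.05. Bmp5 (2.67) and Bmp4 (2.10) lie far to the right of the other ligands, 9 of 10 receptors are called higher, and the Id genes lie on both sides of 0.

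Among the BMP and GDF ligands, Bmp5 and Bmp4 were higher, Bmp7 was slightly lower, and the other 7 tested genes did not pass the test. Bmp5 encodes a BMP that is known in the gut from mesenchymal cells beneath the epithelium. Its wild-type levels were 1.24, 1.17 and 1.17 CPM, against 7.40, 8.09 and 7.48 CPM for the knockout-labelled libraries. The groups lay far apart, and every library of the second group was above every wild-type library. Bmp5 rose by 2.67 on the log2 scale (SE 0.15, edgeR quasi-likelihood test, adjusted p = 7.32e-10), a fold change of 6.38 with a 95% interval of 5.14 to 7.92. These levels rested on 21.9 to 23.5 estimated reads per wild-type library and 122 to 138 in the others.

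Bmp4, a BMP of the villus and subepithelial mesenchyme, showed the same arrangement at lower levels. It was at 0.861, 0.641 and 0.958 CPM in wild-type libraries, against 3.28, 3.69 and 3.65 CPM in the knockout-labelled libraries, on 12.4 to 18.1 and 54.0 to 62.6 estimated reads. Its log2 fold change was 2.10 (SE 0.21, edgeR, adjusted p = 3.70e-07), a 4.29-fold rise with a 95% interval of 3.17 to 5.80. In TPM the wild-type levels of Bmp4 (0.843) and Bmp5 (0.647) were among the lowest of the tested ligands.

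**Figure D2:**
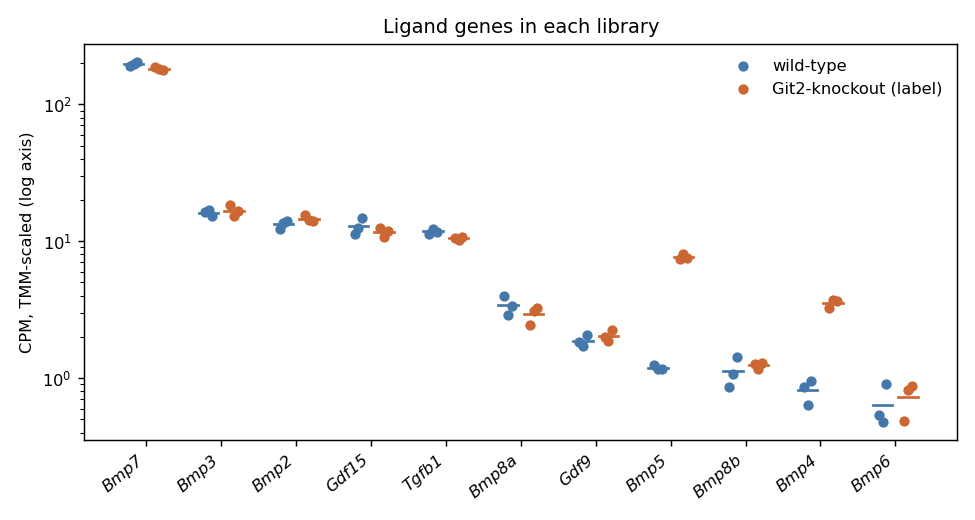
Level of each tested ligand gene (CPM, log axis) in the 3 wild-type and 3 Git2-knockout libraries; each point is 1 library and each bar a group mean. The groups are widest apart for Bmp5, at 1.17 to 1.24 against 7.40 to 8.09 CPM, and Bmp4, at 0.641 to 0.958 against 3.28 to 3.69 CPM.

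The sequences before the starts of these genes are shown because the pair moved together. They are the 250 bases upstream of the RefSeq start (GRCm38.p6, while the submitters' processing notes name GRCm39), Bmp5 from chr9:75775115-75775364 on the plus strand and Bmp4 from chr14:46390670-46390919 on the minus strand. Capitals mark a match to GTCTG or its reverse complement CAGAC, a short Smad-binding core.
Bmp5: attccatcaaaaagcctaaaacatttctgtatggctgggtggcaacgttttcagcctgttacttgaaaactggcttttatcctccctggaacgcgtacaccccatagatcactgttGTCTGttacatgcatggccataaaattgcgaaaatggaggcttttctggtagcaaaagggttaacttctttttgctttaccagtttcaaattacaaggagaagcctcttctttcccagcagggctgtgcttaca
Bmp4: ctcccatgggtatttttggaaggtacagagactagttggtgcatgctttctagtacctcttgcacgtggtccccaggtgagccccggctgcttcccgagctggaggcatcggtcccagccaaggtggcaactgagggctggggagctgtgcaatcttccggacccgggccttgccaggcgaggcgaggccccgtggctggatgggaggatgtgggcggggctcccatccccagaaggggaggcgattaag
The stretches differ in composition, with 42.8% G or C before Bmp5 and 63.2% before Bmp4. The Bmp5 stretch holds 1 match to GTCTG and the Bmp4 stretch 0, while 42.2% of 32851 RefSeq promoters hold at least 1. The GC-rich motif GGCGCC and the palindrome GTCTAGAC, both known from Smad-bound elements, are in neither.

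Fibroblast, telocyte and endothelial markers rose in the same libraries as Bmp5 and Bmp4. Telocytes are subepithelial cells with long processes that are a known source of BMP ligands. Of 10 telocyte markers other than Bmp genes 7 were tested, and all 7 were called higher, with a median log2 fold change of 1.30 and a range from 0.26 (F3) to 2.13 (Pdgfra). Their defining factor Foxl1 was near 0, at a mean of 0.285 CPM among wild-type and 0.534 CPM among knockout-labelled libraries, and was not tested. The fibroblast and smooth muscle markers ranged from 0.51 to 2.13, so the change of Bmp5 (2.67) was above that of each tested marker in both lists, and that of Bmp4 (2.10) was just under Pdgfra.

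Set against the summed CPM of these lists, Bmp5 was higher in the knockout-labelled libraries by each measure. It stood at 2.02%, 1.82% and 1.78% of the fibroblast and smooth muscle sum in wild-type and at 4.15%, 4.29% and 4.10% in the others, a ratio of 2.23 between the means. Against the telocyte sum it was 1.39% ± 0.0544 and 5.26% ± 0.217 (SD, n = 3 libraries each), and against the endothelial sum 2.97% ± 0.117 and 8.95% ± 0.262. Bmp4 went from 1.29% ± 0.255 to 1.93% ± 0.0851 of the fibroblast sum (SD, n = 3 each), a smaller step with no overlap. With 3 libraries against 3, the exact two-sided permutation test cannot go below 0.1, and each of these 4 comparisons gave that value. The telocyte sum was mostly Sox6 (0.45) and F3 (0.26), which made up 69.9% of it in wild-type libraries and rose little. Without this pair the ratio for Bmp5 was 2.49 and for Bmp4 1.68, where the whole sum gave 3.78 and 2.54. The shorter sum was in turn mostly Wnt5a (1.05), at a mean of 18.2 CPM in wild-type libraries, against 3.06 CPM for Pdgfra and 2.78 CPM for Tnc. Against Pdgfra alone, a comparison chosen after the values were seen, Bmp5 was at 39.4% ± 5.22 of its CPM in wild-type libraries and 57.4% ± 6.17 in the others (SD, n = 3 each, exact permutation p = 0.1), a ratio of 1.46 without overlap. Bmp4 relative to Pdgfra overlapped between groups, at 26.8% ± 4.55 and 26.4% ± 1.89 (SD, n = 3 each, exact permutation p = 1). The part of stromal RNA in the rise of either ligand was not tested beyond these ratios.

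**Figure D3:**
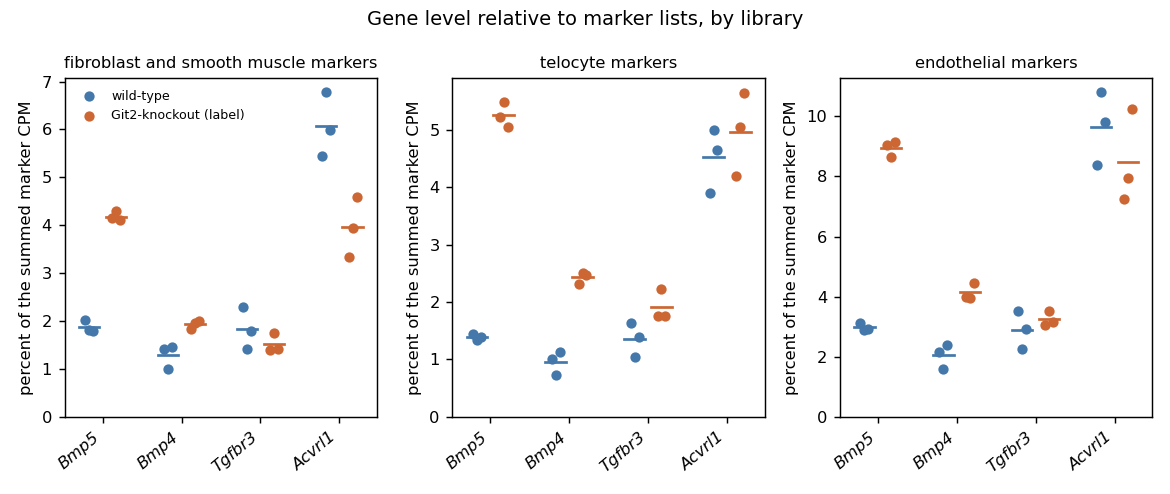
Level of 4 member genes as a percentage of the summed CPM of fibroblast and smooth muscle, telocyte or endothelial markers (1 panel each); points are libraries and bars group means. Bmp5 is higher in the knockout-labelled libraries in every panel (4.18% against 1.87% of the fibroblast sum), while Acvrl1 overlaps between groups in the telocyte and endothelial panels. In the fibroblast panel Acvrl1 is lower in the knockout-labelled libraries without overlap (3.95% against 6.07%).

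Bmp7, the ligand made in the greatest amount, was at 189, 197 and 204 CPM in wild-type libraries, against 187, 181 and 179 CPM in the knockout-labelled libraries. The groups did not overlap but nearly touched, and the log2 fold change was -0.11 (SE 0.04, edgeR, adjusted p = 0.0419). This call was lost when any 1 of 4 libraries was left out, at edgeR adjusted p of 0.114 and 0.170 without wild-type replicate 2 or 3 and 0.0687 and 0.106 without replicate 2 or 3 of the knockout-labelled libraries. In TPM Bmp7 was at 107 to 113 among wild-type libraries and 113 to 115 in the other group.

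The make-up of the BMP ligand pool shifted accordingly, though Bmp7 kept most of it. In summed TPM of the 8 ligands from Bmp2 to Bmp8b, Bmp7 held 85.1%, 85.8% and 85.6% among wild-type libraries and 80.4%, 80.0% and 79.7% in the knockout-labelled libraries. Bmp4 and Bmp5 together held 1.26%, 1.02% and 1.20% among wild-type libraries and 5.58%, 6.36% and 6.09% in the others. Thus the largest relative changes among the ligands were in genes that made up a small part of the BMP transcripts in either group. Bmp2, a ligand also made by villus enterocytes, held 5.98% ± 0.206 and 6.59% ± 0.216 (SD, n = 3 each).

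The other ligands did not pass the test, and the intervals given here are those of the fit with no trend removed. With length and GC trends removed, Bmp3 lay at -0.36 and was called lower (edgeR adjusted p = 0.0017). Gdf15 lay at 0.19 in that fit and was not called, and both values are outside the intervals given here. For Bmp2 the log2 fold change was 0.13 (95% interval -0.05 to 0.31), and the libraries ran from 12.4 to 14.1 and 14.1 to 15.5 CPM. Bmp3, an atypical member that opposes other BMPs, was at 15.4 to 16.8 and 15.3 to 18.3 CPM (0.05, interval -0.13 to 0.23). Gdf15, a stress-induced cytokine of this superfamily, was at 11.3, 12.5 and 14.7 CPM in wild-type libraries, against 12.4, 10.7 and 12.0 CPM in the other group, with overlapping values (-0.13, interval -0.35 to 0.09). Intervals were wider for the rare ligands Bmp6 (-0.57 to 0.95), Bmp8a (-0.58 to 0.15), Bmp8b (-0.39 to 0.69) and Gdf9 (-0.28 to 0.53). Bmp8a and Bmp8b are near-identical copies whose reads may be shared between them, and exons of Bmp6 and Bmp8b overlap a gene on the opposite strand (Txndc5 and Ppie), with the strand setting of the counting not given in the sources used here. Gdf1, Gdf3, Gdf5, Gdf7, Gdf10 and Gdf11 were not tested, at 0 to 11 estimated reads per library.

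Among TGF-beta and activin ligands only Tgfb1 had enough reads to be tested. Tgfb1, the main TGF-beta of immune and epithelial tissue, was at 11.4, 12.3 and 11.7 CPM in wild-type libraries, against 10.5, 10.2 and 10.8 CPM in the knockout-labelled libraries. The second group lay below the first without overlap in CPM, but the difference did not pass the test (log2 fold change -0.17, 95% interval -0.35 to 0.02, edgeR adjusted p = 0.110), and the values overlapped in TPM. Tgfb2 had 4 to 9 and Tgfb3 1 to 13 estimated reads per library and were not tested. The activin chains Inhba (3.10 to 15.0 reads), Inhbb (2 to 8 reads) and Inhbe (0 to 1.18 reads) were not tested either, and the depth did not allow a comparison.

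The antagonists that the name rule took were nearly absent in both groups. Chordin (Chrd), which binds BMP ligands outside the cell, was the only one tested, at 0.538 to 0.801 and 0.648 to 0.850 CPM (log2 fold change 0.15, 95% interval -0.51 to 0.81), and its exons overlap Thpo on the opposite strand. Noggin (Nog) had 0 reads in each wild-type library and 3, 1 and 5 in knockout-labelled ones, too few to test. Grem1, an antagonist of the stroma around the crypt, had 0 to 2 reads per library. A count of 0 still allows 3 reads, so low levels of these genes could not be compared.

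Receptor genes were called higher nearly throughout. Of 11 signalling receptors 10 were tested and 9 were called higher and 0 lower, with a median log2 fold change of 0.61, and Bmpr1b, at 0 to 4 reads, was not tested. The share called was 90%, beside 57% of all tested genes called and 29.6% called higher. Bmpr2, the type II receptor of BMP ligands, was at 42.0, 42.1 and 41.7 CPM in wild-type libraries, against 81.6, 78.2 and 76.1 CPM in the knockout-labelled libraries. That is close to a doubling with very little spread within groups, a log2 fold change of 0.91 (SE 0.05, edgeR, adjusted p = 6.90e-10). The activin type II receptors, which also bind BMP ligands, moved the same way. Acvr2a was at 51.4, 48.6 and 45.7 CPM in wild-type libraries, against 79.1, 72.2 and 76.7 CPM in the others (0.65), though its exons overlap Orc4 on the opposite strand. Acvr2b was at 17.5, 20.1 and 17.5 against 26.0, 28.5 and 28.1 CPM (0.58). Tgfbr2, the type II receptor of TGF-beta, changed least in this class, from 47.1, 45.7 and 48.9 to 54.0, 56.0 and 57.8 CPM (0.25), also with no overlap.

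The type I receptors covered a wider range. Acvrl1 encodes ALK1, a receptor for BMP9 and BMP10 that is typical of endothelium. It was at 3.34, 4.38 and 3.94 CPM in wild-type libraries, against 5.95, 7.44 and 8.36 CPM in the knockout-labelled libraries (log2 fold change 0.90, SE 0.15). Endothelial markers had a median of 1.15 in the same libraries, and Acvrl1 relative to their sum was 9.66% ± 1.22 among wild-type libraries and 8.49% ± 1.55 in the other group (SD, n = 3 each, exact permutation p = 0.3), with overlapping values. Relative to the fibroblast sum Acvrl1 fell from 6.07% ± 0.668 to 3.95% ± 0.625 without overlap (SD, n = 3 each, exact permutation p = 0.1). Acvr1c, which encodes the activin and nodal receptor ALK7, rose from 30.3, 30.4 and 27.6 to 51.0, 50.2 and 49.2 CPM (0.77). Tgfbr1, the type I receptor of TGF-beta, rose from 44.8, 43.8 and 40.3 to 67.9, 67.0 and 66.4 CPM (0.64). Bmpr1a, the main BMP type I receptor of the intestinal epithelium, rose from 53.8, 54.2 and 52.2 to 76.6, 72.5 and 69.6 CPM (0.45). In all 3 of these genes the lowest library of the second group was above the highest wild-type library.

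The remaining type I receptors changed little. Acvr1b, the activin receptor ALK4 and in TPM the most abundant receptor of all (61.6 ± 1.31 among wild-type libraries and 74.6 ± 1.60 in the other group), was at 131, 131 and 137 CPM in wild-type libraries, against 145, 144 and 143 CPM in the knockout-labelled libraries. Its call (log2 fold change 0.12, edgeR adjusted p = 0.0266) was lost under RLE scaling (0.0505) and without wild-type replicate 1 (0.102) or 2 (0.132) or replicate 2 (0.0803) or 3 (0.104) of the other group. Acvr1, a BMP receptor known as ALK2, did not pass the test, at 24.1 to 25.8 and 25.9 to 28.5 CPM (0.15, 95% interval 0.01 to 0.28, edgeR adjusted p = 0.0615). It was called higher with library totals only (edgeR adjusted p = 0.0232), with a stricter filter (edgeR, 0.0460) and on log2(TPM + 1) (limma, 0.00265).

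The receptor result changed when trends with transcript length and base composition were removed. At the median, though not each of them, the receptor transcripts were long and poor in G and C. Their median length implied by counts and FPKM was 5.43 kb (range 2.77 to 11.2 kb) against 2.76 kb for all tested genes. Their median GC content was 45.0% (range 39.9% to 56.6%) against 49.8%, and Acvrl1 (56.6%), Acvr2b (54.4%) and Acvr1b (53.5%) lay above that value. With the length trend removed in each library, 7 of the 10 receptors were called higher with a median of 0.31. In that fit 54% of all tested genes were called, 23.5% higher and 30.5% lower. With length and GC trends both removed, 4 were called higher, Bmpr2 (0.24), Acvr2b (0.29), Tgfbr1 (0.15) and Acvrl1 (0.94), and the median was 0.11. Bmpr1a then lay at -0.024, Acvr1c at 0.10 and Acvr2a at 0.12, none of them called. The background was 46.1% of all tested genes called in that fit, 16.1% higher and 30% lower. The trends were fitted in these same libraries, so a real change that follows length or GC would be removed with them.

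**Figure D4:**
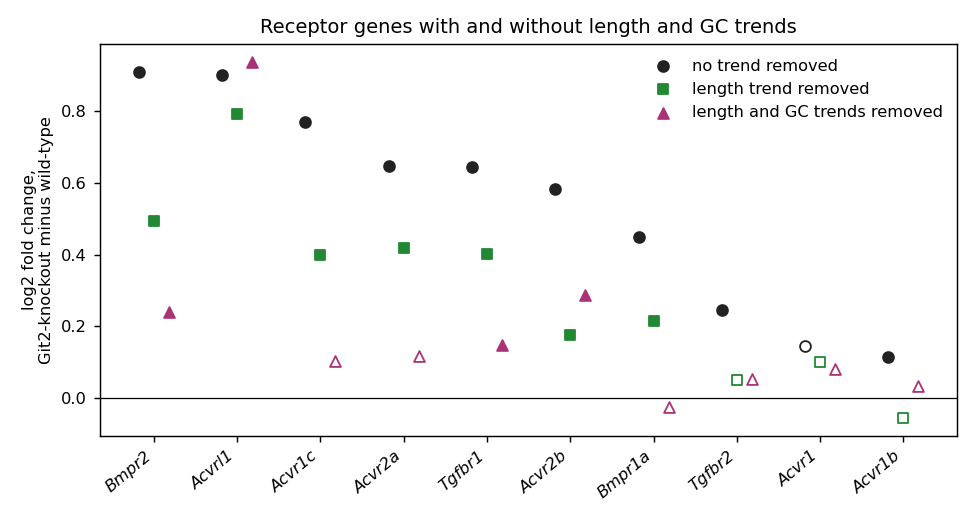
Log2 fold change (Git2-knockout minus wild-type, y axis) of the 10 tested receptor genes with no trend removed (circles), the length trend removed (squares) or length and GC trends removed (triangles); filled symbols passed an adjusted p of 0.05. The median falls from 0.61 to 0.31 and 0.11, and Acvrl1 (0.90, 0.79 and 0.94) is the receptor that moves least among the large rises.

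Of the co-receptors and decoys, Tgfbr3 was higher. It encodes betaglycan, which presents TGF-beta to its receptors and also binds inhibin. Its level was 1.40, 0.908 and 1.17 CPM in wild-type libraries, against 2.49, 3.28 and 2.59 CPM in the knockout-labelled libraries, on 17 to 26 and 41 to 56 reads. The groups did not overlap (log2 fold change 1.26, SE 0.22, edgeR, adjusted p = 1.17e-04), and the change was close to the medians of the fibroblast (1.42) and endothelial (1.15) markers. Relative to the fibroblast sum Tgfbr3 was at 1.82% ± 0.441 among wild-type libraries and 1.52% ± 0.192 in the others (SD, n = 3 each, exact permutation p = 0.3), with overlapping values. Relative to the telocyte sum it went from 1.35% ± 0.302 to 1.91% ± 0.272 without overlap (SD, n = 3 each, exact permutation p = 0.1), but with Sox6 and F3 left out of that sum the values overlapped, with a ratio of 0.939 (exact permutation p = 0.7). Against Pdgfra alone, a comparison chosen after the values were seen, Tgfbr3 was lower in the knockout-labelled libraries without overlap. It stood at 38.3% ± 10.3 in wild-type libraries and 20.9% ± 3.96 in the others (SD, n = 3 each, exact permutation p = 0.1), a ratio of 0.546. Bambi, a pseudoreceptor without a kinase domain that dampens signalling, was at 4.14, 5.18 and 4.47 against 5.64, 5.10 and 6.12 CPM. It overlapped between groups and did not pass the test (0.29, 95% interval 0.01 to 0.57, edgeR adjusted p = 0.0689), though it was called higher without wild-type replicate 2 (0.38, edgeR adjusted p = 0.0423). Bambi was also called higher with library totals only (edgeR adjusted p = 0.0425), with the length trend removed (edgeR, 0.0286) and on log2(TPM + 1) (limma, 0.00854). With length and GC trends both removed it was not called (0.19, edgeR adjusted p = 0.249). Tgfbr3l, related to betaglycan, was at 3.36 to 3.93 and 3.06 to 3.98 CPM (-0.01, interval -0.33 to 0.31).

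Smad genes changed modestly, and 5 of 7 tested were called higher and 0 lower, with a median log2 fold change of 0.13. That is 71.4% of a small set, beside 57% of all tested genes called and 29.6% called higher. Smad5, a receptor Smad of the BMP branch, was at 60.8, 57.6 and 57.9 CPM in wild-type libraries, against 78.7, 81.7 and 81.3 CPM in the knockout-labelled libraries (0.45, SE 0.05, edgeR, adjusted p = 8.36e-07). Its partner Smad1 was at 23.3, 25.6 and 24.0 against 26.4, 23.7 and 25.6 CPM, overlapping and not called (0.06, 95% interval -0.09 to 0.20). Smad9, the third of this branch, had 3.76 to 14.6 reads and was not tested. In the TGF-beta branch, Smad3 rose from 52.8, 52.3 and 48.9 to 56.5, 61.0 and 62.7 CPM (0.23), and Smad2 from 63.2, 60.7 and 60.6 to 67.1, 67.6 and 66.5 CPM (0.12). Smad4, the shared partner, rose from 99.2, 102 and 99.8 to 117, 119 and 117 CPM (0.23).

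Most of these small Smad changes were not kept once the length and GC trends were taken out. With length and GC trends both removed, Smad5 lay at 0.027, Smad4 at -0.073 and Smad3 at 0.11 (edgeR adjusted p = 0.0438, and 0.592 with the length trend alone removed), and Smad2 was called lower at -0.37 (edgeR adjusted p = 1.40e-06). The call of Smad2 in the fit with no trend removed (edgeR adjusted p = 0.0337) was also lost without any 1 of 5 libraries, the exception being wild-type replicate 1, with adjusted p from 0.0655 without replicate 1 of the knockout-labelled libraries to 0.132 without wild-type replicate 2.

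The inhibitory Smads and the Id genes are direct targets of the pathway. Id proteins are helix-loop-helix factors without a DNA-binding region that hold back differentiation factors. Of the 4 Id genes, Id2 was called higher, Id3 lower and the others not, a share of 50% beside 57% of all tested genes. Id2, in TPM the most abundant of the Id genes, was at 225, 229 and 229 CPM in wild-type libraries, against 294, 248 and 258 CPM in the knockout-labelled libraries. The second group was higher in every library but more scattered (log2 fold change 0.23, SE 0.05, edgeR, adjusted p = 0.00213). Id3 went the other way, from 41.4, 47.4 and 46.7 to 36.7, 30.1 and 33.7 CPM, without overlap (-0.43, SE 0.07, edgeR, adjusted p = 1.29e-04).

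Id1, the most widely used BMP response gene, did not pass the test. It was at 66.2, 70.9 and 75.1 CPM in wild-type libraries, against 69.8, 62.3 and 67.0 CPM in the knockout-labelled libraries, with overlapping values (log2 fold change -0.09, 95% interval -0.21 to 0.03, edgeR adjusted p = 0.182). Without replicate 1 of the knockout-labelled libraries it was called lower (-0.16, edgeR adjusted p = 0.0107). Id4 was rare, at 2.51 to 3.55 and 2.83 to 3.34 CPM (0.08, interval -0.28 to 0.44). Id1, Id2 and Id3 have short transcripts, with implied lengths of 0.894, 1.22 and 0.904 kb, while that of Id4 is 3.91 kb. With the length trend removed the first 3 moved up (Id3 to -0.20, still called lower) and Id4 moved down. With length and GC trends both removed, Id3 lay at -0.061 and was no longer called, Id1 was called higher at 0.26 (edgeR adjusted p = 2.28e-05) and Id2 stayed higher at 0.26. The summed TPM of Id1 to Id4 was 622.6, 646.6 and 648.3 in wild-type libraries, against 791.5, 708.4 and 737.6 in the knockout-labelled libraries, higher in each. Most of that sum was Id2, with group means of 377 and 492 TPM. The scale mattered, since on log2(TPM + 1) the median of all tested genes itself lay at 0.14. Id1, for example, had group means of 160 and 168 in TPM but 70.7 and 66.4 in CPM.

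**Figure D5:**
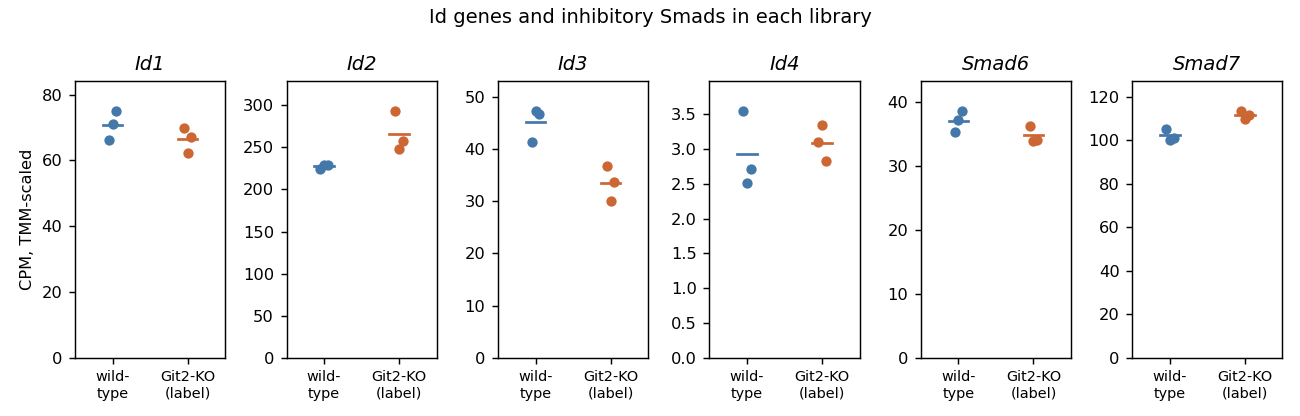
CPM (linear axis from 0) of the 4 Id genes and the inhibitory Smads in each library, with 1 panel per gene; points are libraries and bars group means. Id2 and Smad7 are higher in every library labelled Git2-knockout and Id3 is lower in each, while Id1, Id4 and Smad6 overlap.

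The stretches before Id2 and Id3 are shown because these target genes went in opposite directions. As above they are the 250 bases upstream of the RefSeq start (GRCm38.p6), Id2 from chr12:25096093-25096342 on the minus strand and Id3 from chr4:136143572-136143821 on the plus strand. Capitals mark GGCGCC in Id2 and GTCTG or CAGAC in Id3.
Id2: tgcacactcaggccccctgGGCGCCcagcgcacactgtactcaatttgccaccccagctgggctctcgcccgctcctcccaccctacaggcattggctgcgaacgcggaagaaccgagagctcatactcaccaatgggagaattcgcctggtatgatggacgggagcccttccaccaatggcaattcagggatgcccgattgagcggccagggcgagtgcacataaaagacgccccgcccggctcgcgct
Id3: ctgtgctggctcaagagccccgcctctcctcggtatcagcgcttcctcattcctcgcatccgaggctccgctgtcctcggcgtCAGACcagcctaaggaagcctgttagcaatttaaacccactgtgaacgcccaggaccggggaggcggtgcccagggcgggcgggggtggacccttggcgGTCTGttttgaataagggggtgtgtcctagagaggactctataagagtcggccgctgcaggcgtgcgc
Both stretches held 62.8% G or C. The Id2 stretch holds 1 match to GGCGCC and 0 to GTCTG, and the Id3 stretch 0 and 2, searched on both strands and with no overlap between the motifs. Among all 32851 RefSeq promoters of this length, 9.59% hold GGCGCC and 42.2% hold GTCTG. A gene can have several promoters in that table. Counted by gene, with a match in any of its promoters, 11 of the 37 members with an entry (29.7%) hold GGCGCC and 17 (45.9%) hold GTCTG, beside 10.8% and 45.8% of all 27025 genes. GGCGCC is made of G and C only, and the member stretches that hold it had 59.2% (Gdf1) to 83.2% (Bmp2k) G or C. The genes compared were not matched for composition, and its part in the difference was not tested. GTCTAGAC was in none of the 37 members with an entry and in 0.167% of all promoters. Members without an entry, among them Id1, Smad2, Smad4, Smad7, Bmp2 and Bmp7, could not be searched for any of these motifs.

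Among the inhibitory Smads, which block receptor Smads in a feedback loop, Smad7 was at 105, 100.2 and 101 CPM in wild-type libraries, against 113, 109.6 and 111 CPM in the knockout-labelled libraries (log2 fold change 0.13, edgeR adjusted p = 0.0218). The groups did not overlap, but the call was lost without any 1 of 4 libraries, with edgeR adjusted p of 0.116 and 0.0775 without wild-type replicate 2 or 3 and 0.0623 and 0.0988 without replicate 1 or 3 of the other group. Smad6, more closely tied to BMP signals, was at 35.3, 37.2 and 38.7 against 36.4, 34.0 and 34.1 CPM, overlapping and not called (-0.09, 95% interval -0.21 to 0.03), and it was called lower only without replicate 1 of the knockout-labelled libraries among the single libraries left out (-0.15, edgeR adjusted p = 0.0265).

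The name rule also took 2 genes outside ligand signalling. Bmp1 encodes a metalloproteinase that trims procollagens and cleaves chordin. It was at 72.0, 78.2 and 82.2 CPM in wild-type libraries, against 68.0, 66.4 and 72.8 CPM in the knockout-labelled libraries, overlapping by a narrow margin (log2 fold change -0.17, edgeR adjusted p = 0.0200), and the call was lost without wild-type replicate 2 (0.0660) or 3 (0.118) or replicate 2 of the other group (0.0504). Bmp2k, a kinase related to clathrin adaptor kinases, rose from 44.5, 45.2 and 45.3 to 60.6, 62.5 and 61.4 CPM (0.45). With the length trend removed it lay at 0.12, and with length and GC trends removed at 0.034 and was no longer called (edgeR adjusted p = 0.602). Its exons overlap Paqr3 on the opposite strand.

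Other genes of the pathway, from lists chosen for their known roles, were also called in both directions. Of 79 tested genes in 4 lists 44 were called higher and 16 lower, 75.9% beside a background of 57%, with a median log2 fold change of 0.30 against 0.02 for all tested genes. With length and GC trends both removed, 27 were called higher and 18 lower, where 16.1% of all tested genes were called higher and 30% lower. Of 14 tested extracellular regulators 9 were called higher and 1, Rgmb (-0.23), lower. The matrix and ligand-binding genes Fstl1 (1.53), Bgn (1.43), Fbn1 (1.92) and Fbn2 (2.35) led this list, and in the same libraries the fibroblast markers had a median of 1.42. Of 13 tested genes of TGF-beta latency and activation 8 were called higher and 2, Mmp14 (-0.24) and Furin (-0.14), lower. Among the rises were Ltbp4 (1.15), which tethers latent TGF-beta to the matrix, Itgav (0.57) and Itgb6 (0.43), the integrin subunits that release it at epithelial surfaces, and Thbs1 (0.62), an activator.

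Intracellular regulators and other target genes were called in both directions. Of 33 intracellular regulators 18 were called higher and 7 lower, with a median log2 fold change of 0.16. That is 75.8% called, beside 57% of all tested genes (29.6% higher and 27.4% lower). Skil (0.57), a Smad corepressor that TGF-beta itself induces, Wwp1 (0.57), a ubiquitin ligase for Smads and receptors, and Xiap (0.84), which links BMP receptors to TAK1, rose, and Ppp1r15a (-0.42), part of a phosphatase for the TGF-beta receptor, fell. Of 19 tested target genes outside the rule 9 were called higher and 6 lower, 78.9% beside the same 57%. The rises with the smallest p were Tnc (1.95), Hes1 (0.57), Fn1 (1.78) and Lox (2.59). Tnc, Fn1 and Lox are matrix genes that fibroblasts express, and 3 genes of these lists, Tnc, Dcn and Eng, also stand in the marker lists. Atoh8, a BMP target, fell by 0.73 on the log2 scale, and was chosen for mention after its values were seen. Of 7 villus-tip enterocyte genes, which mark the zone of strong BMP signalling, 3 were called higher and 2 lower, 71.4% beside the same 57%. Nt5e (0.48), Klf4 (0.25) and Egfr (0.23) rose, and Apoa4 (-0.59) and Creb3l3 (-0.27) fell, with a median of 0.07 for the list.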

How the data were processed

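RNA of 3 wild-type and 3 Git2-knockout libraries was sequenced after oligo(dT) capture, per the labels' protocols, and groups and replicate numbers come from the sample titles. HISAT, Bowtie2, RSEM and the build GRCm39 are named, without versions, in the submitters' processing notes. The deposited table gives estimated counts per gene (58.9% to 69.2% of values per library not whole), with FPKM and TPM, per the file headers.

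Estimated counts were rounded and tested in R 4.3.3 with edgeR 4.0.16 (filterByExpr, TMM, robust quasi-likelihood test, two-sided, no covariates, Benjamini-Hochberg over 13558 genes, threshold 0.05). Standard errors are the log2 fold change over the root of F. Transcript length came from counts and FPKM of at least 0.5 (93.1% of tested genes), GC content from GENCODE transcripts of GRCm38 (97.3%), and trends were removed by loess (span 0.5) per library. The steps were tested on simulated data. Counts of same-group libraries differed beyond sampling noise (chi-square over its degrees of freedom 1.58 to 7.15), so each was kept as 1 sample. Knockout-labelled replicate 1 stood apart from replicates 2 (7.15) and 3 (5.29), which were at 1.95 from each other, while wild-type pairs reached 2.84. Without that library 8343 genes were called, against 7725 with all libraries. Alternatives were other scalings and filters, DESeq2 1.42.0, limma 3.58.1 (voom, and log2(TPM + 1)), a replicate block, the trends, and each library left out, with ratios to Pdgfra and to a shorter telocyte sum added after seeing the data. Values were given per library for called members changed by at least 0.5 on the log2 scale and for the 2 most abundant members of each role, and further members were given per library after their values were seen; up to 4 called genes with the smallest p were named per list. Members and lists were chosen with earlier results of these data known. Of the members not tested, 1 is counted but not reported here.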

Additional observations from a re-analysis of the deposited data

How the results depend on the processing

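Of the 22 called members, 8 kept their call and direction in every alternative that could test them: Bmp5, Bmp4, Tgfbr3, Acvrl1, Bmpr2, Acvr2b, Tgfbr1 and Id2. With the length trend, or the length and GC trends, removed, 12 lost the call or turned (Acvr1b, Acvr1c, Acvr2a, Bmp2k, Bmpr1a, Id3, Smad2, Smad3, Smad4, Smad5, Smad7 and Tgfbr2). Without 1 or another library 5 lost it: Acvr1b, Smad2 and Smad7 of those 12, and Bmp1 and Bmp7. The 19 members called higher became 11 with length and GC trends removed, and the 44 other pathway genes called higher became 27. The 3 members called lower became 1 with library totals only, 1 with limma-trend on log2(TPM + 1) and 6 with the length trend removed. The other pathway genes called lower went from 16 to 2 on log2(TPM + 1), a scale on which the median of all tested genes lay at 0.14, so that 75.1% of calls were higher against 51.9% in edgeR on counts. With length and GC trends removed, 34.9% of calls were higher. Leaving out each library in turn gave 17 to 19 members higher and 1 to 5 lower. Relative to telocyte markers, the alternatives without Sox6 and F3 and with Pdgfra alone were chosen after seeing the data. The cause of these differences was not tested.

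Signs turned as follows on the log2 scale. With the length trend removed, the values were Acvr1b -0.054, Bmp3 -0.22, Gdf15 0.0083, Id1 0.15, Id4 -0.059, Smad1 -0.0026, Smad2 -0.24, Smad4 -0.069, Smad7 -0.0096 and Tgfbr3l 0.17. With length and GC trends removed, they were Bmp3 -0.36, Bmpr1a -0.024, Gdf15 0.19, Id1 0.26, Id4 -0.25, Smad2 -0.37, Smad4 -0.073, Smad6 0.039 and Tgfbr3l 0.30. In those fits Bmp3 was called lower (edgeR adjusted p = 0.0455 and 0.0017). On log2(TPM + 1) they were Bmp7 0.053, Gdf15 0.020, Id1 0.071, Smad6 0.057 and Tgfbr3l 0.14, and with library totals only Tgfbr3l lay at 0.023. Leaving out each library in turn gave these ranges for uncalled members: Bmp3 -0.049 to 0.096 (sign turned without knockout-labelled replicate 1), Bmp8b -0.0090 to 0.37 (sign turned without wild-type replicate 1), Chrd -0.0043 to 0.26 (sign turned without wild-type replicate 1), Id4 -0.023 to 0.24 (sign turned without wild-type replicate 2), Smad1 -0.0024 to 0.093 (sign turned without knockout-labelled replicate 1) and Tgfbr3l -0.099 to 0.081 (sign turned without wild-type replicate 1 or knockout-labelled replicate 3).

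With the replicate number as a block, 17 members were called higher and 2 lower, and Acvr1b, Bmp7 and Smad2 lost their calls. Deviations of same-numbered libraries were nearly uncorrelated (0.041, -0.0011 and 0.050), beside -0.068 to 0.033 for the other pairs. With 3 libraries per group these values cannot tell whether same-numbered libraries share more than a number, and the labels do not say. Rare members such as Bmp6, Chrd, Bmp8b and Gdf9 are limited by depth, with 39 estimated reads at most in a library.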
